A study of Bos taurus with 8 samples.

Results

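The first 3Kb window of a gene, where that window also holds the first coding exon, was examined in 8 MIRA-Seq libraries of bovine dermal fibroblast cultures. The genome had been divided into 902984 consecutive windows of 3Kb (UMD v3.1), and a window within a gene carries the gene's symbol, its strand and, where it holds one, the number of a coding exon. On chromosomes 1 to 29 the first window of a gene was taken as the window with the lowest start on the + strand or the highest start on the - strand. It was kept if it was labelled with coding exon 1 and if the gene covered 3 or more windows. This gave 10015 first windows of 10015 genes, 5613 on the + strand and 4402 on the - strand. The genes covered a median of 10 windows, the longest covered 732, and 1192 covered exactly 3. Windows 2 and 3 of the same genes, counted from the first into the gene, served for comparison.

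All cultures were dermal fibroblasts grown from shoulder skin biopsies of heifers of closely similar age, expanded to passage 5 in DMEM with fetal bovine serum and an insulin-transferrin-selenium supplement, and left without any treatment. The comparison was between 4 Holstein and 4 Angus animals, with 1 culture and 1 library each, named Holstein 1 to 4 and Angus 1 to 4, and values of single libraries are listed in that order. No input library was used here. Because genomic DNA was measured, the cell type given in the labels could not be checked against the expression of fibroblast markers.

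DNA methylation in mammals is placed mainly on cytosines of CpG dinucleotides. Most of the genome is CpG-poor and methylated, whereas many gene starts lie in CpG islands, which are kept free of methylation in most tissues, and genes used only in germ cells are among the known exceptions that are methylated at their start in somatic cells. MIRA-Seq pulls down sonicated DNA with the MBD2b/MBD3L1 protein complex, which binds methylated CpG, so that a window with more methylated CpG gives more reads. The pull-down reads neither an unmethylated island nor a window without CpG, and a low read count does not tell them apart. A level is an average over a culture, and fewer methylated cells and less methylated CpG per cell cannot be told apart either.

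The libraries held between 18691111 and 35525554 reads in windows, and levels are given as CPM, the count of a window scaled to this library total. In a single window 3 reads, taken as the least that differs from no reads, were equal to 0.0844 to 0.161 CPM, a limit that covers counting error only. First windows held 0.596% (Angus 3) to 1.04% (Holstein 4) of the reads, with a median of 5 to 17 reads per window. Holstein 1 and Angus 3 stood apart from the other libraries with 0.713% and 0.596% of their reads in first windows, and results that rest on them are also given without them. Between any 2 libraries of a breed the counts differed by more than sampling noise (chi-square per first window between 1.30 and 2.48), and all 8 were kept as separate samples.

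First windows gave few reads. Of the 10015 first windows, 3010 had a mean level under 0.25 CPM over the 8 libraries, 2956 between 0.25 and 0.5 CPM and 2168 between 0.5 and 1 CPM. At the other end, 1099 lay between 1 and 2 CPM, 660 between 2 and 5 CPM, 104 between 5 and 10 CPM, and 18 at 10 CPM or more. The level of 1 CPM was reached in all 8 libraries by 1047 first windows and in no library by 6976. Only 40 first windows had fewer than 3 reads in every library, and 7 had no read in any.

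Per library, the share of first windows at 1 CPM or more was 13.9% in Holstein 1, 22.8% in Holstein 2, 21.8% in Holstein 3 and 24.1% in Holstein 4. It was 20.2% in Angus 1, 21.3% in Angus 2, 12.0% in Angus 3 and 20.2% in Angus 4. Holstein 1 and Angus 3 were thus the lowest of their breeds, and the breeds overlapped. Over the 8 libraries the share was 19.5% ± 4.28 (SD, n = 8), against 25.3% ± 5.00 in window 2, 28.2% ± 5.29 in window 3 and 16.7% ± 4.39 in the window just before the gene. In all 837275 autosomal windows it was 12.9% ± 3.08, so by this share first windows lay above the autosomal background and below the windows that follow them. The median first window had 0.395 ± 0.0985 CPM, against 0.443 ± 0.115 in window 2, 0.490 ± 0.132 in window 3 and 0.285 ± 0.0841 in all autosomal windows (SD, n = 8). By the mean the order against the autosomal background was the opposite, with 0.885 ± 0.155 CPM in first windows against 0.979 ± 0.0559 CPM in all autosomal windows, and first windows were lower in 7 of 8 libraries.

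**Figure D1:**
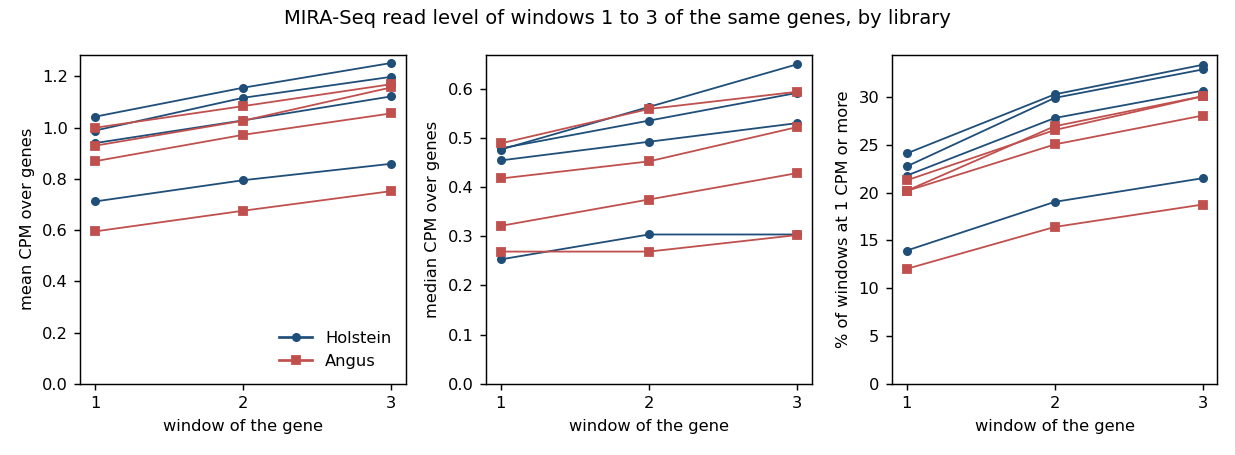
Mean CPM, median CPM and percentage of windows at 1 CPM or more (vertical axes) for windows 1, 2 and 3 of the same 10015 genes (horizontal axis), with 1 line per library (circles, Holstein; squares, Angus). Mean level and percentage rose from window 1 to window 3 in all 8 libraries, and Holstein 1 and Angus 3 lay below the other libraries.

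The mean level of first windows was lower than that of windows 2 and 3 in every library. The log2 ratio of the mean CPM of first windows to that of window 2 was -0.15 ± 0.022 (SD, n = 8), between -0.18 and -0.12, and below 0 in 8 of 8 libraries. Against window 3 it was -0.28 ± 0.035 (SD, n = 8), between -0.34 and -0.23, again below 0 in 8 of 8 libraries. In an exact two-sided sign-flip permutation test over the 8 libraries, with Benjamini-Hochberg adjustment over 3 comparisons, both gave an adjusted p of 0.0078, which is the smallest p that 8 libraries allow. Without Holstein 1 and Angus 3 the log2 ratios were -0.15 and -0.27. With the 1% of highest windows left out of either set they were -0.27 and -0.45.

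The size and direction of the difference in mean level varied between classes of gene length, with no steady order by length. These means include single very high windows. Among genes of 3 windows TSN had 645 CPM in its first window. Among genes of 100 or more windows ERBB4 had 77.9 CPM, against 155 CPM in window 2. In genes of 3 windows the log2 ratio to window 2 was 0.02, below 0 in 4 of 8 libraries, and in genes of 4 to 9 windows it was -0.38, below 0 in 8 of 8. In genes of 10 to 29 windows it was 0.10, below 0 in 1 of 8. It was -0.26 in genes of 30 to 99 windows and -0.22 in genes of 100 or more windows, below 0 in 8 and 7 of 8 libraries. The share of windows at 1 CPM or more was 27.0% in the first window against 43.7% in window 2 in genes of 3 windows. It was 23.2% against 31.9% in genes of 4 to 9, and in both classes lower in 8 of 8 libraries. In genes of 10 to 29 windows it was 16.7% against 18.2% (lower in 7 of 8), and in genes of 30 to 99 12.2% against 12.6% (5 of 8). In genes of 100 or more windows it was 12.2% against 9.89%, lower in 0 of 8. Over all genes of 10 or more windows the log2 ratio to window 2 was -0.016, below 0 in 5 of 8 libraries (exact permutation test, adjusted p = 0.430), and the ratio to window 3 turned to 0.10, below 0 in 1 of 8 (adjusted p = 0.0352). Without the top 1% of windows the ratio to window 3 in these genes was -0.12. First windows of genes of 3 windows had a median of 0.521 ± 0.129 CPM and those of genes of 4 to 9 windows 0.456 ± 0.112 CPM. In genes of 30 to 99 windows the median was 0.297 ± 0.0942 CPM, and in genes of 100 or more windows it was 0.276 ± 0.0758 CPM. Just outside the limit of 3 windows, the 2040 first windows with coding exon 1 in genes of 2 windows had a median of 0.502 ± 0.128 CPM (SD, n = 8), close to the genes of 3 windows.

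Levels along the gene were taken from 4814 genes of 10 or more windows, fewer than entered the ratios above. The lowest share of windows at 1 CPM or more was found just before the gene. It was 12.6% ± 3.55 in that window, 14.9% ± 3.46 in the first window and 15.8% ± 4.17 in window 2. The share then rose to 17.8% ± 4.44 in window 3 and 22.2% ± 4.36 in window 10 (SD, n = 8). By this share the first window lay between the windows on either side. The mean of the library medians was slightly lower in the first window, at 0.334 ± 0.0973 CPM, against 0.344 CPM both before and after it. This came from Holstein 2 (0.433 against 0.476 CPM) and Angus 1 (0.419 against 0.454 CPM) only. In the other libraries the medians of these windows were equal.

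**Figure D2:**
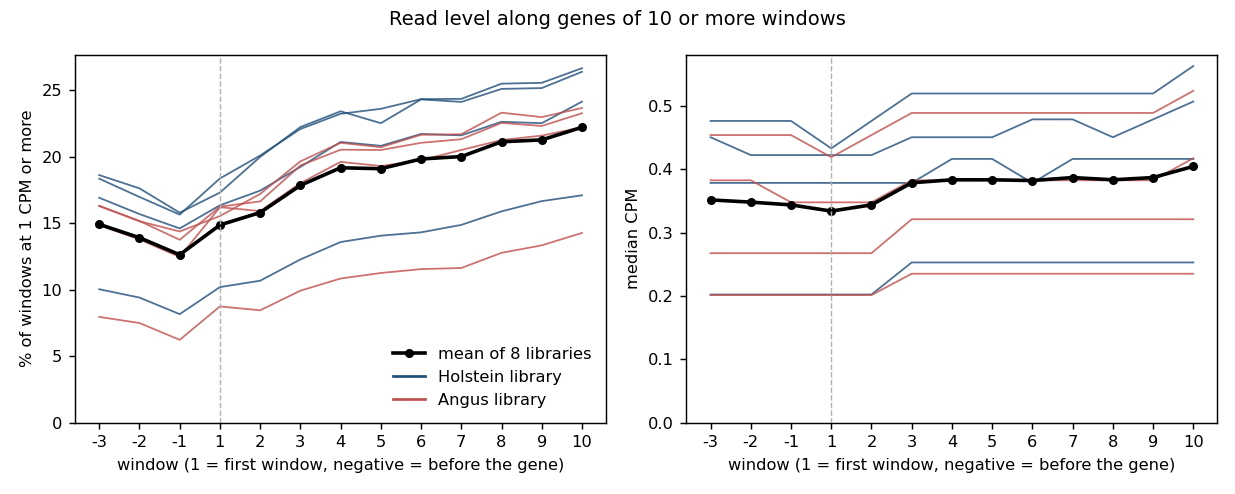
Percentage of windows at 1 CPM or more (left) and median CPM (right) from 3 windows before a gene to its window 10. Shown are 4814 of the genes of 10 or more windows that carry coding exon 1 in the first window. Thin lines are libraries, the black line is their mean, and the dashed line marks the first window. The percentage was lowest in the window before the gene, at 12.6%, and rose to 22.2% in window 10.

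Gene by gene, the order of the windows varied. The first window had a lower mean CPM than window 2 in 5340 genes (53.3%), a lower mean CPM than window 3 in 5722 (57.1%), and a lower one than both in 4093 (40.9%). It was higher than both in 3043 genes (30.4%). A margin of 2 times or more below both neighbours was found in 1705 genes, and a margin of 2 times or more above both in 1094. In all 8 libraries the first window was below both neighbours in 1637 genes and above both in 1102. The Spearman correlation of mean CPM across the 10015 genes was 0.538 between first windows and window 2, 0.469 between first windows and window 3, and 0.665 between windows 2 and 3. These windows share libraries, depth and local base composition.

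First windows without the label of coding exon 1 had a lower mean level than those with it. The 5959 first windows of genes of 3 or more windows without this label had a mean of 0.703 ± 0.132 CPM, against 0.885 ± 0.155 CPM with it (SD, n = 8). The log2 ratio was 0.33 ± 0.062, above 0 in 8 of 8 libraries (exact sign-flip permutation test, adjusted p = 0.0078). Of those 5959, 4468 held no coding exon and had a mean of 0.606 ± 0.117 CPM and a median of 0.330 ± 0.0941 CPM. The other 1491 held another coding exon number and had a mean of 0.996 ± 0.181 CPM and a median of 0.524 ± 0.122 CPM (SD, n = 8), both above the values with coding exon 1. The labels were unequal between strands, with another number in 190 first windows on the + strand and 1301 on the - strand. The log2 ratio was 0.54 on the + strand and 0.13 on the - strand, and on medians it was 0.12 over both strands.

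First windows also differed between chromosomes. The median level was highest on chromosome 25, at 0.589 ± 0.132 CPM over 302 genes, followed by chromosomes 29 (0.534 ± 0.129), 18 (0.534 ± 0.131) and 19 (0.518 ± 0.126). It was lowest on chromosome 6, at 0.277 ± 0.0874 CPM over 346 genes (SD, n = 8). On chromosome 25, 32.0% of first windows reached 1 CPM on average over libraries, against 13.3% on chromosome 6. Window 2 of the same genes followed, with a median of mean CPM of 0.853 on chromosome 25 and 0.235 on chromosome 6.

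Levels in first windows were then described for gene lists, each by the genes it had among the 10015. Over all 10015 genes the median of mean CPM was 0.393 in the first window, 0.436 in window 2 and 0.490 in window 3, and 1881 first windows (18.8%) had a mean of 1 CPM or more. The highest list was that of germline genes, which act in the formation of eggs and sperm and in the piRNA pathway that silences transposons. Its 31 genes had a median of 1.27 CPM in the first window, against 0.305 CPM in window 2 and 0.420 CPM in window 3. Of the 31, 19 (61.3%) had a mean of 1 CPM or more, 20 were higher than both following windows, and 15 were so in all 8 libraries. In no other list did most first windows have a mean above 1 CPM.

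The highest germline gene was TDRD9, an RNA helicase of the piRNA pathway, with 4.05, 4.89, 4.88 and 4.50 CPM in the Holstein libraries and 3.77, 4.52, 3.19 and 5.35 CPM in those of Angus. MOV10L1, a helicase needed for piRNA production, had 2.68, 3.51, 4.77 and 4.64 CPM in the Holstein libraries and 3.25, 3.65, 2.62 and 4.33 CPM in those of Angus. Angus 3 was the lowest library for both genes, and the breeds overlapped. In MOV10L1 the following windows had 0.66 and 0.39 CPM, whereas in TDRD9 they were also high, at 1.94 and 3.09 CPM. The pattern of a high first window beside low neighbours was marked in DDX4, the germ cell RNA helicase also known as vasa, with a mean of 2.17 CPM against 0.016 and 0.27 CPM.

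STAG3, a cohesin subunit of meiotic chromosomes, had 2.12 CPM in the first window against 0.13 and 0.59 CPM in windows 2 and 3. SPATA22, which acts in meiotic recombination, had 2.32 CPM against 0.10 and 0.044 CPM. DAZL, an RNA-binding protein of germ cells, had 1.47 CPM against 0.17 and 0.66 CPM. Other germline genes did not show this. BRDT, the testis member of the BET bromodomain family, had the lowest first window of the list at 0.14 CPM, and HORMAD2, a protein of meiotic chromosome axes, had 0.15 CPM.

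**Figure D3:**
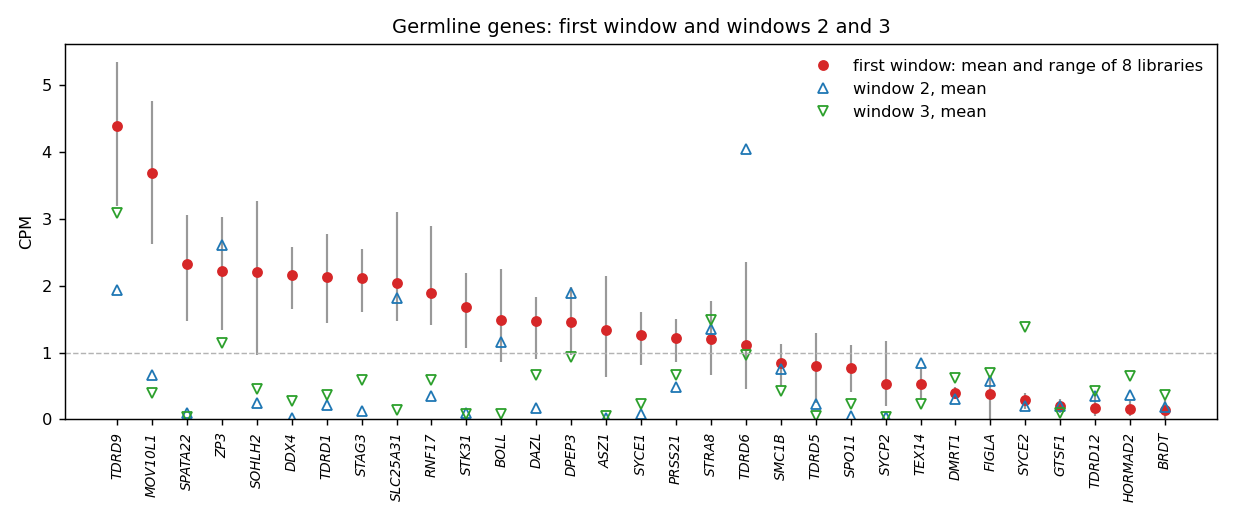
CPM of the first window (red points, mean; grey lines, range of the 8 libraries) and mean CPM of windows 2 and 3 (open triangles) for the 31 germline genes, ordered by first-window level. The dashed line is at 1 CPM, above which 19 genes lie.

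Fibroblast matrix and identity genes stood at the other end. Their 18 first windows had a median of 0.183 CPM and none reached a mean of 1 CPM, although windows 2 and 3 were low as well, at 0.162 and 0.286 CPM. LUM, a small proteoglycan of the collagen matrix, had 0.044 CPM and COL3A1, the chain of type III collagen, had 0.053 CPM, and their highest libraries had 0.141 and 0.114 CPM. TGFBI and P4HB, an extracellular matrix protein and a subunit of collagen prolyl hydroxylase, were the highest of the list at 0.82 and 0.73 CPM. Housekeeping genes had a median of 0.279 CPM in 17 first windows, close to the 0.276 CPM of window 2 and below the 0.567 CPM of window 3. PSMC1, an ATPase of the proteasome, was the 1 gene of the 17 above 1 CPM, at 1.61 CPM, and UQCRC1, a subunit of respiratory complex III, followed at 0.96 CPM, while PSMB2 and PSMD1, also proteasome subunits, had 0.083 and 0.12 CPM.

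Genes of cell types other than fibroblasts were mixed. Keratinocyte and epithelial genes had a median of 0.778 CPM in 21 first windows, above the 0.425 CPM of window 2 and the 0.597 CPM of window 3, and 8 reached 1 CPM. PKP3 and PKP1, plakophilins of desmosomes, were the highest at 3.83 and 2.26 CPM, and in both the following windows were higher still, between 3.32 and 9.01 CPM. KRT5 and KRT14, the keratins of basal epidermis, had 1.99 and 1.89 CPM. TP63 and DSG3, a transcription factor and a desmosomal cadherin of the same epithelium, were the lowest with 0.10 and 0.16 CPM.

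The 22 blood cell genes had a median of 0.410 CPM, close to that of all first windows, and 6 reached 1 CPM. RUNX3, a transcription factor of T cells, had 2.49 CPM and CD6, a T cell surface receptor, had 1.61 CPM, with lower following windows in both genes. IKZF3 and ITGAL, a lymphoid transcription factor and an integrin subunit of leukocytes, were the lowest at 0.061 and 0.16 CPM.

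Imprinted genes, of which 1 parental copy is methylated at control regions, had a median of 0.603 CPM in 19 first windows, near the 0.645 and 0.565 CPM of windows 2 and 3. The highest was SLC22A18, a transporter, at 3.77 CPM, followed by RTL1 and ZFAT at 2.50 CPM each, and 6 of the 19 reached 1 CPM. IGF2R and PPP1R9A were the lowest, at 0.14 CPM each. In IGF2R, the receptor that clears IGF2, window 2 had 2.27 CPM.

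Developmental transcription factors, whose starts often lie in broad CpG islands, had a median of 0.366 CPM in 47 first windows, against 0.539 and 0.420 CPM in windows 2 and 3. Of the 47, 6 reached 1 CPM, among them PAX8 at 1.79 CPM. MEIS2 and TBX20 had the lowest levels, at 0.075 and 0.094 CPM.

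The 26 genes of the response to lipopolysaccharide, which the wider study used as its challenge, had lower first windows than following windows. The median was 0.320 CPM, against 0.614 CPM in window 2 and 0.897 CPM in window 3, and 17 of the 26 were lower than both (40.9% over all 10015 genes). MYD88, the adaptor of most Toll-like receptors, had 0.35 CPM against 2.66 CPM in window 2, and IKBKB, a kinase that frees NF-κB, had 0.22 CPM against 2.64 CPM. TRAF3, an adaptor of receptor signalling, was the exception in level with 4.91 CPM, followed by TRAF1 with 1.73 CPM. TAB2 and MAP3K7, partners in the TAK1 kinase complex, were the lowest with 0.017 and 0.051 CPM.

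Genes that write, read and erase DNA methylation had a median of 0.389 CPM in 10 first windows. MBD2, a methyl-CpG-binding protein of the family used in the pull-down, had 1.03 CPM, and TET2, an enzyme that oxidizes 5-methylcytosine, had 0.99 CPM. TDG and MBD4, glycosylases that repair deaminated cytosines, were the lowest at 0.16 and 0.22 CPM. DNMT1, the maintenance methyltransferase, had 0.27 CPM.

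**Figure D4:**
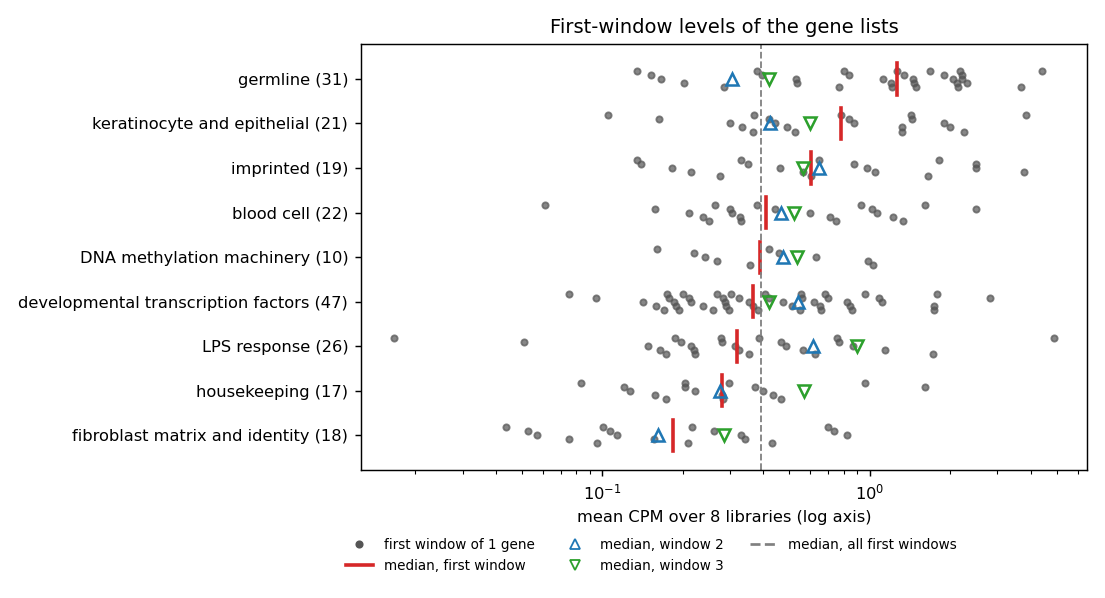
Mean CPM over 8 libraries (horizontal log axis) of the first window of each gene (grey points) in 9 gene lists, with the number of genes in parentheses. Red bars are list medians of first windows, open triangles are the medians of windows 2 and 3, and the dashed line is the median of all 10015 first windows. The germline median lies at 1.27 CPM and the fibroblast median at 0.183 CPM.

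A few first windows held a large share of the reads. The 4 highest of the 10015 held 13.4% of the summed mean CPM and the 100 highest held 25.1%. The highest was TSN, which encodes the nucleic acid-binding protein translin, on chromosome 2 (chr2:73825934-73828933). Its reads were 12540, 18898, 15434 and 24200 in the Holstein libraries and 14935, 16193, 10885 and 18554 in those of Angus, a mean of 645 CPM. Windows 2 and 3 of TSN had 0.20 and 1.27 CPM, so the level of the first window was 506 times the higher of them.

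The same step was found in RIMKLA (184 CPM, 564 times), which encodes an enzyme that links N-acetylaspartate to glutamate, and in YBX1 (123 CPM, 476 times), a cold-shock domain protein, both on chromosome 3. It was also found in C20H5orf34 (65.5 CPM, 140 times), MUC12 (62.0 CPM, 118 times), a membrane mucin, and RBM27, an RNA-binding protein with 5.83 CPM, for which no fold is given because its windows 2 and 3 held at most 3 reads in any library. In these 6 genes, which had been chosen by this ratio over the same libraries, the first window exceeded windows 2 and 3 in 8 of 8 libraries. In ERBB4, a receptor of neuregulins with 77.9 CPM in its first window, the following windows were higher, at 155 and 123 CPM. In ARHGEF11, a guanine nucleotide exchange factor of small GTPases with 231 CPM, they were 185 and 52.0 CPM. High first windows were therefore of different kinds, some isolated and some within a longer stretch.

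The deposited coverage showed how far these reads were stacked. The highest coverage of any base was set against the read count of the window, in percent, and the median over the libraries with 20 or more reads was taken. It was 21.6% at the median of the 4924 first windows with 20 or more reads in at least 1 library. This value is a ratio of 2 deposited columns and not a share, since it reached 113% in RBM27, the 1 first window of the 4924 above 100%. It was 45.7% in TSN, 54.9% in RIMKLA and 83.4% in LMF2, the lipase maturation factor with 62.9 CPM. Of the 18 first windows at 10 CPM or more, 13 lay above the median and 5 were at 50% or more, against 42 at 50% or more of the 4924. Whether reads that match several places take part in these levels was not tested.

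Among symbols beginning with LOC, the highest first windows were LOC784083 at 26.9 CPM, LOC100848430 at 15.4 CPM and LOC616099 at 10.5 CPM. T, the mesodermal transcription factor brachyury, had 30.7 CPM in its first window against 1.78 and 2.46 CPM in windows 2 and 3, and C28H10orf11 had 32.3 CPM.

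The 6 largest steps down were 17.9 to 25.4 times below the lower of windows 2 and 3. INHBB, the beta B subunit of inhibins and activins, had 1 to 5 reads in every library, a mean of 0.144 CPM, against 4.07 and 3.65 CPM in windows 2 and 3, which is 25.4 times below the lower of them. PDGFA, a growth factor of mesenchymal cells, had 0.211 CPM, 19.2 times below the lower of the following windows. LENG8 was 19.1 times below, KCTD5, an adaptor of ubiquitin ligases, 18.7 times, CRAMP1L 18.6 times, and ARHGEF7, an activator of Rac and Cdc42, 17.9 times. These 4 first windows had 0.284, 0.192, 0.117 and 0.136 CPM, in that order. They held 2 to 12, 1 to 8, 0 to 6 and 1 to 10 reads per library. With counts so near the limit of 3 reads the folds are uncertain. In all 6 genes the first window was below windows 2 and 3 in 8 of 8 libraries. The 6 had been chosen by this ratio over the same libraries.

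Libraries ordered first windows alike. Across the 10015 first windows, Spearman's correlation of CPM between libraries was 0.8289 to 0.891 within Holstein, 0.807 to 0.862 within Angus and 0.810 to 0.894 between breeds, over windows that share sequence and gene. Single first windows varied more. LOC783134 had 7.54, 1.39, 5.03 and 5.52 CPM in the Holstein libraries and 0.454, 6.02, 2.72 and 4.23 CPM in those of Angus, so that 1 library of each breed lay far below the rest. GIMAP1, a GTPase of lymphocytes, had 1.42, 4.89, 1.66 and 1.24 CPM in the Holstein libraries and 2.55, 3.02, 0.840 and 4.12 CPM in those of Angus. Holstein 2 and Angus 4 were the highest, and the breeds overlapped.

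AQP1, a water channel, had 2.73, 3.55, 2.84 and 3.60 CPM in the Holstein libraries, and in those of Angus it had 0.733, 2.50, 2.45 and 0.749 CPM. In these CPM values the breeds did not overlap in AQP1, but its log2 fold change of 0.73 (SE 0.30) had an adjusted p of 0.728 in edgeR's likelihood-ratio test with Benjamini-Hochberg adjustment. Angus 3 decided this, since AQP1 was called without it, with a log2 fold change of 1.22 (SE 0.24) and an adjusted p of 5.68e-04, and also without Holstein 1 and Angus 3 (1.18, SE 0.25, adjusted p = 9.57e-04). Unlike CPM, the test also scaled library sizes by TMM, with a factor of 0.677 in Angus 3 and 0.817 in Holstein 1. This raises both libraries. With CPM divided by the factor of each library, AQP1 in Angus 3 lies above the Holstein libraries, so the breeds overlap on the scale of the test. LOC787600, LOC100298364 and RTN4RL2, a receptor of the Nogo receptor family, varied by 4.76, 4.56 and 4.23 times between their highest and lowest library.

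The mean level of first windows did not differ between the breeds by more than the spread of the libraries. It was 0.712, 0.989, 0.940 and 1.04 CPM in the Holstein libraries and 0.869, 0.930, 0.595 and 0.9995 CPM in those of Angus, a mean of 0.921 ± 0.145 CPM in Holstein against 0.848 ± 0.177 CPM in Angus (SD, n = 4). The difference of 0.0725 CPM was smaller than the spread within either breed. With library sizes scaled by TMM, a trimmed mean of ratios, all 8 libraries lay between 0.849 and 0.913 CPM and the difference was -0.00545 CPM.

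Methylation levels of single windows were compared between Holstein and Angus cultures with edgeR's likelihood-ratio test on all windows with at least 1 CPM in at least 4 libraries. A window was called at FDR < 0.1 and FC ≥ 2. Of the 10015 first windows, 2015 (20.1%) passed the CPM filter, and 2 of these were called, against 0.231% of all 115360 windows tested. A share of 0.0993% of first windows is of the same order as that background. Both were higher in Holstein, the direction taken by 0.039% of all windows tested. With edgeR's quasi-likelihood test the same 2 first windows were called, against 0.122% of all windows. Without a minimum fold change, 9 first windows passed FDR < 0.1, against 0.368% of all windows. Of these, 3 were higher in Holstein and 6 in Angus, directions taken by 0.107% and 0.261% of all windows. At an unadjusted p under 0.05 there were 104 first windows, against 4.94% of all windows tested. Of these, 41 were higher in Holstein and 63 in Angus, against 2.36% and 2.58% of all windows.

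The first of these was AXIN2, a scaffold protein of the complex that degrades beta-catenin and a common target of Wnt signalling. Its first window (chr19:62858675-62861674, - strand) is window 1 of 9. It had 35, 58, 54 and 88 reads in the Holstein libraries and 21, 39, 24 and 8 reads in those of Angus, or 2.20 ± 0.357 CPM in Holstein against 0.831 ± 0.387 CPM in Angus (SD, n = 4). Every Holstein library lay above every Angus library, and Angus 4 was the lowest. The log2 fold change was 1.19 (SE 0.22), with an adjusted p of 1.54e-04 in edgeR's likelihood-ratio test and 0.0268 in its quasi-likelihood test (Benjamini-Hochberg). Without Angus 4 the log2 fold change was 0.95, under the minimum of 2-fold. Window 2 of AXIN2, which follows the first window into the gene, had 1.57 ± 0.534 CPM in Holstein against 0.717 ± 0.292 CPM in Angus, and its log2 fold change of 0.97 (SE 0.25, adjusted p = 0.0337, likelihood-ratio test) was also just under that minimum. In window 3 it was 0.43 (SE 0.19), with an adjusted p of 0.859.

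The second was LOC100336675 (chr15:53581057-53584156, + strand), a gene of 3 windows. Its first window had 22, 35, 38 and 63 reads in the Holstein libraries and 18, 19, 12 and 16 reads in those of Angus, or 1.46 ± 0.272 CPM in Holstein against 0.637 ± 0.186 CPM in Angus (SD, n = 4). All Holstein libraries lay above all Angus libraries. The window passed the CPM filter through the 4 Holstein libraries only, so this separation was given by the filter and is no added support. The log2 fold change was 1.09 (SE 0.22), with an adjusted p of 0.0011 in edgeR's likelihood-ratio test and 0.0552 in its quasi-likelihood test (Benjamini-Hochberg). Because it reached 1 CPM in the 4 Holstein libraries only, it did not pass the CPM filter when any 1 of these was left out, and was not called. It was called without each Angus library in turn, where it again entered through the Holstein libraries alone. Without a CPM filter the log2 fold change was 1.09 (SE 0.27, adjusted p = 0.0660, likelihood-ratio test). In window 2, which also carries the label of coding exon 1, the log2 fold change was 0.38 (SE 0.25, adjusted p = 1.000), and the breeds overlapped.

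ADAMTS5 and NTRK2, an aggrecan-cleaving protease and the receptor of brain-derived neurotrophic factor, did not pass the CPM filter of the main fit, because their first windows reached 1 CPM in 3 Angus libraries only. In ADAMTS5 (chr1:8811701-8814700) the first window had 0.253, 0.476, 0.870 and 0.535 CPM in the Holstein libraries and 1.68, 1.15, 0.873 and 2.09 CPM in those of Angus. Holstein 3 and Angus 3 nearly met, and the breeds did not overlap. In NTRK2 (chr8:79335787-79338786) the values were 0.253, 0.260, 0.681 and 0.450 CPM in the Holstein libraries and 1.82, 1.32, 0.873 and 2.25 CPM in those of Angus, again with every Angus library higher. In the fit without a CPM filter, where 8 of 10008 first windows were called against 0.102% of all windows, the log2 fold change of these windows, both among the 8, was -1.53 (SE 0.28) in ADAMTS5 and -1.997 (SE 0.286) in NTRK2.

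In windows 2 and 3 of both genes no difference between the breeds passed the test. Both genes were chosen because the paper reported their first windows as different between these cultures. Their first windows are therefore no independent comparison with the windows that follow. Window 2 of ADAMTS5 had 0.258 ± 0.153 CPM in Holstein against 0.317 ± 0.237 CPM in Angus, and window 3 had 0.455 ± 0.125 and 0.557 ± 0.213 CPM (SD, n = 4). Window 3 of NTRK2 had 0.535 ± 0.345 CPM in Holstein against 0.445 ± 0.158 CPM in Angus, while window 2 had at most 5 reads in any library. In all 4 of these windows the breeds overlapped and the adjusted p in edgeR's likelihood-ratio test without a CPM filter was 1.000.

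**Figure D5:**
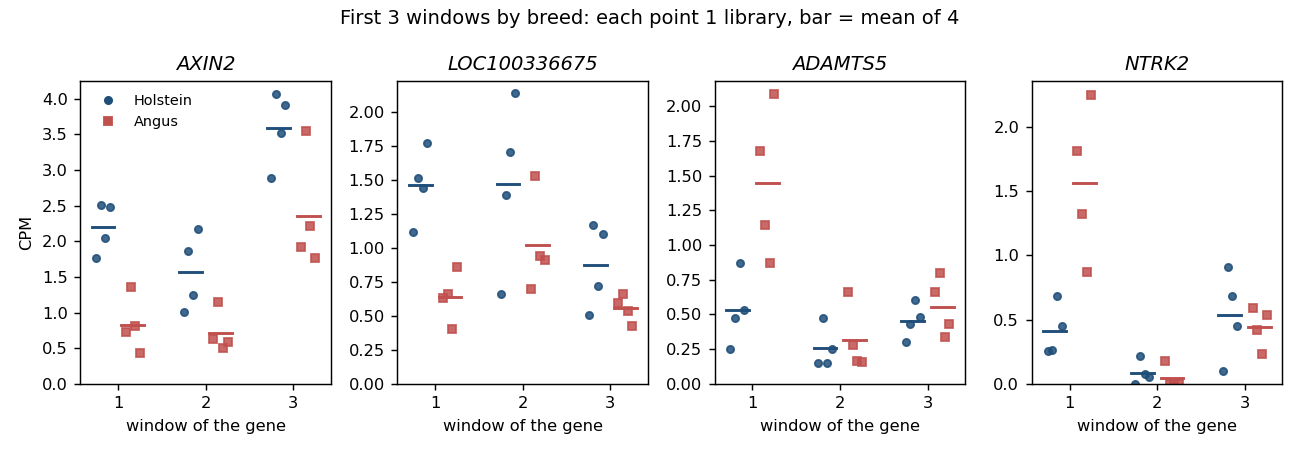
CPM (vertical axis) of windows 1, 2 and 3 in AXIN2, LOC100336675, ADAMTS5 and NTRK2, with 1 point per library (circles, Holstein; squares, Angus) and bars at the mean of 4 libraries. In CPM without TMM scaling the breeds do not overlap in window 1 of any of the 4 genes. They overlap in every window 2 and 3. The genes were chosen for a breed difference in window 1 of these data. In window 2 of AXIN2 the adjusted p was 0.0337 (likelihood-ratio test, Benjamini-Hochberg) despite the overlap.

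Over the 2015 first windows tested, the breeds did not overlap in CPM in 68, with Holstein higher in 27 and Angus higher in 41. Over all windows tested this was found in 2.63%, with Holstein higher in 1.38% and Angus in 1.25%. These counts use CPM without the TMM scaling of the test, so a window set apart here can overlap on the scale of the test. T was among the 68, with 28.2, 16.8, 27.3 and 25.4 CPM in the Holstein libraries and 36.5, 39.9, 32.4 and 38.8 CPM in those of Angus. Its log2 fold change was -0.71 (SE 0.34), with an adjusted p of 0.965 in edgeR's likelihood-ratio test. The median log2 fold change was -0.01 over first windows and 0.00 over all windows tested.

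In the gene lists, 53 first windows were tested between breeds and none was called by edgeR's likelihood-ratio test. At an unadjusted p under 0.05 there were 2 of 19 germline genes, 2 of 6 developmental transcription factors, 1 of 7 blood cell genes and 1 of 8 keratinocyte genes, all higher in Angus, and none in the other lists. These 6 of 53 stand beside 104 of all 2015 first windows tested, of which 63 were higher in Angus. No fibroblast gene and 3 genes of the lipopolysaccharide response passed the CPM filter.

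The number of first windows called changed with the libraries used, so that single calls at the margin are uncertain. It was 1 without Holstein 2 and 1 without Holstein 4, against 0.188% and 0.138% of all windows tested in those fits. It was 4 without Holstein 3 (0.164% of all windows) and 5 without Angus 3 (0.183%). Without both Holstein 1 and Angus 3 it was 9 of 2265, where 0.498% of all windows were called. In that fit the CPM filter asked for 1 CPM in 3 libraries instead of 4. ADAMTS5 and NTRK2 entered it and were among the 9, so this fit differs in filter as well as in libraries. The CPM filter of the main fit was passed by 20.1% of first windows and 12.8% of all windows. Most of the lower ones were compared only in the fit without a filter.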

How the data were processed

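Genomic DNA of 8 cultures was enriched for methylated fragments and sequenced. The authors removed low-quality reads (base calling with CASAVA 1.7 per the labels), mapped reads with NextGENe to the UMD v3.1 genome, and deposited raw read counts in consecutive 3Kb windows without normalization. The files also hold the coverage signal of each window as deposited by the authors, not scaled for depth, and its highest value was used only to see how far reads were stacked. The treatment of duplicate reads and of reads with several matches is not given in the sources used here, and levels in repeats depend on it. Counts depend on CpG density and pull-down efficiency as well as on methylation.

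The library size was the sum of reads over the 902984 windows, between 18691111 and 35525554. At this depth 3 reads were equal to 0.0844 to 0.161 CPM. First windows were found by symbol and strand on chromosomes 1 to 29, and 14 genes with both strands on 1 chromosome were left out. Each window carries 1 gene name and 1 coding exon number, so genes that share a window are not all seen. The symbols of 8612 of the 10015 genes matched a protein-coding gene in RefSeq (ARS-UCD2.0, used for names only), and 1336 had no match. In 18 genes the symbol was used on more than 1 chromosome, and windows longer than 3Kb, up to 3300 bases, made up 30 of the 10015. No sequence is printed.

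Breeds were compared in R 4.3.3 with edgeR 4.0.16, with the CPM filter, the likelihood-ratio test of a generalized linear model and the Benjamini-Hochberg adjustment that the paper names. All windows with at least 1 CPM in at least 4 libraries entered, 115360 in all. TMM scaling and dispersions by estimateDisp were chosen here. Standard errors were taken from the p-value, as the absolute log2 fold change over the square root of the matching chi-square. Each p of this comparison rests on the spread between libraries. With 1 culture and 1 library per animal, animal, culture and pull-down cannot be told apart in that spread. Windows of a gene were compared by the log2 ratio of mean CPM within each library, with an exact two-sided sign-flip permutation test over 8 libraries. Its p does not measure the spread between genes, since all libraries read the same windows. These steps ran in Python 3.11.15 (pandas 2.3.3, numpy 2.4.6, scipy 1.17.1). Alternatives were edgeR's quasi-likelihood test, DESeq2 1.42.0, other scalings, filters and thresholds, the replicate number as a block, medians, long genes, each strand and leaving out libraries.

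Genes named in the text were ADAMTS5 and NTRK2, every first window called between breeds, the 10 highest symbols and the 3 highest beginning with LOC, the 2 highest and 2 lowest of each of 9 gene lists, the 6 largest steps up and the 6 largest steps down against windows 2 and 3 (mean of the 3 windows at least 1 CPM, no LOC symbols), and the 6 with the widest range between libraries (mean at least 2 CPM). Further list genes (DDX4, STAG3, SPATA22, DAZL, KRT5, KRT14, RTL1, MYD88, IKBKB, DNMT1) were chosen after their values were seen. The values of 1 list gene that the rule names are not reported here. The windows, lists and tests were chosen with earlier results of these data known.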

Additional observations from a re-analysis of the deposited data

Results flagged for a closer look

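In each breed the 4 libraries of a result were looked at for a library far from the other 3, where the gap to the nearest library took more of the whole range than Dixon's 95% critical value allows. This was done in 174 groups of 4 and marked 9. The median over all first windows was entered under more than 1 name, so its mark in Holstein 1 is counted more than once. Chance marks about 1 in 20 groups, which is close to the share marked here.

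Over all first windows the median CPM of Holstein 1, at 0.253, lay below the other Holstein libraries, which had 0.454 to 0.479. The share of first windows at 1 CPM or more was 12.0% in Angus 3, against 20.2 to 21.3% in the other Angus libraries. In the list of the lipopolysaccharide response the median first window of Holstein 1 was 0.152 CPM, against 0.411 to 0.435 CPM in Holstein 2 to 4.

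In single genes, PDGFA had no read in the first window of Holstein 1 (0 CPM), against 0.225 to 0.265 CPM in the other Holstein libraries. GIMAP1 had 4.89 CPM in Holstein 2, against 1.24 to 1.66 CPM. TRAF1 had 0.974 CPM in Angus 3, against 1.56 to 1.61 CPM. TAB2 had reads in only 1 library of each breed, with 0.0281 CPM in Holstein 4 and 0.105 CPM in Angus 1. The latter 2 values are 1 and 3 reads, at or under the smallest count taken as different from 0.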

How the results depend on the processing

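The lower mean level of first windows was not found in all classes of gene length. In genes of 10 or more windows the log2 ratio to window 2 was -0.016 (adjusted p = 0.430, exact permutation test), -0.0043 with the top 1% of windows also left out and -0.013 on medians, and the ratio to window 3 turned to 0.10. On medians in these genes the log2 ratio of first windows with to those without coding exon 1 was 0.098 (adjusted p = 0.0938, exact permutation test). The combined settings for long genes, those without Holstein 1 and Angus 3, and each strand were added after seeing the data. All other settings, including medians over all genes and symbols not beginning with LOC, kept the 3 ratios on their side. Leaving out each library in turn gave log2 ratios of -0.16 to -0.15 to window 2, -0.29 to -0.27 to window 3 and 0.32 to 0.34 for coding exon 1.

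The share of first windows at 1 CPM or more was 40.8% at 0.5 CPM, 7.94% at 2 CPM and 24.2% with library sizes over chromosomes 1 to 29. The difference in mean level between breeds ranged from -0.0119 to 0.142 CPM over the libraries left out.

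First windows called between breeds numbered 2, and 2 also with the quasi-likelihood test, 1 with DESeq2's Wald test, 0 with at least 1 CPM in all 8 libraries (54 at an unadjusted p under 0.05 in edgeR's likelihood-ratio test, or 5.16%, against 5.30% of all windows), 4 on placed autosomes, 9 without a minimum fold change, 8 without the CPM filter and 9 without Holstein 1 and Angus 3. The shares of all windows called in these fits were 0.231%, 0.122%, 0.122%, 0.285%, 0.110%, 0.368%, 0.102% and 0.498%, in that order. The fit without Holstein 1 and Angus 3 also lowered the CPM filter to 3 libraries. Leaving out each library gave 1 to 5, beside 0.138% to 0.493% of all windows. DESeq2 did not call LOC100336675, with a log2 fold change of 1.09. AXIN2 was called in 18 of the 19 fits it entered.

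The labels use the same animal numbers in both breeds and do not say that they pair animals. Same-numbered libraries did not deviate together (correlation of deviations from the breed means -0.141 to 0.0766). With the replicate number as a block 2 first windows were called, of 346 windows in all against 267 without it, and the paired difference in mean level was 0.0725 CPM. The median first window held 5 to 17 reads, which limits what can be detected in low first windows.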
